A study of Mus musculus with 20 samples.

Results

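The cytochrome P450 genes were taken as all autosomal genes on the array whose name is Cyp followed by a number and a letter, such as Cyp2c29. There were 83 such genes, read by 213 probes, among 20368 autosomal gene names and 161460 autosomal probes. They lay on 15 chromosomes. Members less than 1 Mb apart formed 9 clusters, which held 63 genes and 151 probes, and the other 20 genes stood singly. At least 2 probes read 55 of the genes, and 1 probe read the other 28. Of the 83 names, 80 were current RefSeq symbols and 3 were matched through a synonym; the names of the array files are kept here.

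The DNA of 20 malignant peritoneal mesotheliomas was compared with kidney DNA by array comparative genomic hybridisation, in which tumour and reference DNA compete for the same probes. All mice were C57BL/6 and had received 2 intraperitoneal injections of 1.5 mg crocidolite, a fibrous asbestos, when 6 and 7 weeks old (a total of 3 mg), and were then watched for 600 to 700 days. Each array set tumour DNA (Cy5) against non-neoplastic kidney DNA (Cy3) of the same genotype, and a value above 0 means more DNA in the tumour than in the kidney. A deletion or transgene carried by the whole animal is in both channels, so these ratios do not check the genotype labels.

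The 5 genotypes were wild type (7 tumours), Dmt1Tg, which carries a transgene of the iron transporter Dmt1 (4 tumours), MutyhKO (3), Ogg1KO (3) and Mth1KO (3). Mutyh, Ogg1 and Mth1 act against oxidised guanine, Mutyh and Ogg1 as DNA glycosylases and Mth1 as a hydrolase of oxidised nucleotides. The promoter of the transgene and the design of the knockout alleles are not given in the sources used here. The wild-type tumours came in 2 labelled sets, here WT_Dmt1 (4 tumours, labelled as wild type with Dmt1 in brackets) and WT_plain (3 tumours). No label says that each tumour came from its own mouse, so the spread and p-values below describe these samples. A bulk tumour also holds non-tumour cells, and fewer cells with a change and a smaller change per cell cannot be told apart.

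Array quality differed between tumours. Probe noise, the spread between neighbouring probes, ran from 0.217 on the log2 scale in MutyhKO 1 to 0.535 in WT_Dmt1 1. The tumour signal was well above background at 91.8% to 99.8% of spots and the kidney signal at 73.4% to 97.7%. A patch of the array surface was left out in WT_plain 1 (8.55% of spots), WT_plain 2 (5.11%) and MutyhKO 1 (0.281%). The arrays lay on 5 slides and were scanned on 2 days. All 4 WT_Dmt1 arrays lay on slide 1 and all 4 Dmt1Tg arrays on slide 2, both scanned on day 1, and all others were scanned on day 2. The 20 arrays also shared a common profile along the genome, and the slope of an array on it ran from 0.461 in Ogg1KO 3 to 1.30 in Ogg1KO 2. A level that is alike in all 20 tumours may lie in the tumour or in the kidney DNA, and these cannot be told apart here.

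Cytochromes P450 are haem enzymes that insert an oxygen atom into their substrates, using electrons passed on by P450 reductase (Por) or, in mitochondria, by adrenodoxin. Families with low numbers in the name handle mainly drugs and other foreign compounds, and others act on fatty acids, steroids, bile acids, vitamin D or retinoic acid. The genes of a subfamily often lie side by side as copies made by duplication, and such clusters can differ in gene number between mouse strains. The kidney, the source of the reference DNA, and the liver express many of them, but DNA content, not expression, was measured here.

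Probes were 47 to 60 bases long, and 195 of the 213 had 60 bases. Their mean GC content was 36.9%, against 36.8% over all autosomal probes. No P450 probe shared a run of 20 or more bases with another probe of the array, on either strand (the longest shared run had 19). Probes were not compared with the genome, so matches to related genes away from the probes were not tested. The sequences that carry the values below follow, in lower case since no part of them is singled out, with positions on mm9 as the files give them; the strand of a probe is not given in the sources used here. The first are the probes of Cyp4f41-ps, the member with the lowest mean, and of Cyp24a1, which was below 0 in every tumour.
Cyp4f41-ps, chr17:33094084-33094143: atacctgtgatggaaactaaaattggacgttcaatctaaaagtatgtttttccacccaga
Cyp4f41-ps, chr17:33101961-33102020: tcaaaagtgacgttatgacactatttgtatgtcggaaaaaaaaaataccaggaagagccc
Cyp24a1, chr2:170308524-170308583: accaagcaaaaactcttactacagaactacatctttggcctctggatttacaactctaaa
Cyp24a1, chr2:170319263-170319322: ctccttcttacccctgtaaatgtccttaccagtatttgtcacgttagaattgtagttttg
Probes of Cyp2b9 and Cyp2u1 carry the genotype comparisons and the comparison of the wild-type sets.
Cyp2b9, chr7:26970872-26970931: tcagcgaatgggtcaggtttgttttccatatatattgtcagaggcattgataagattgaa
Cyp2b9, chr7:26990684-26990743: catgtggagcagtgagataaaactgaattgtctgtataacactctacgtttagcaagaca
Cyp2u1, chr3:130996851-130996910: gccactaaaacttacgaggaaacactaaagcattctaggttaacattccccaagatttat
Cyp2u1, chr3:131004588-131004647: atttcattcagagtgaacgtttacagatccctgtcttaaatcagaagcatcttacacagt
The last 3 show how far probes of these genes can part: the highest and the lowest probe of Cyp2c66, and the probe of Cyp2d26, which had the widest range over tumours.
Cyp2c66, chr19:39231074-39231133: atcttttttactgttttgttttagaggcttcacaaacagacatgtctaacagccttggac
Cyp2c66, chr19:39238586-39238644: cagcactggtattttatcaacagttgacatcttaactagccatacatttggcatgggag
Cyp2d26, chr15:82624635-82624690: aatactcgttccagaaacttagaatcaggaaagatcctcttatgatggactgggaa

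Probes of one gene often disagreed, so a gene's level below rests on few and uneven probes. Over the 20 tumours, 111 of the 213 probes had a mean above 0 and 102 below, from -0.83 to 0.80 on the log2 scale. The gap between the highest and the lowest probe mean of a gene had a median of 0.301 over the 55 genes with at least 2 probes, and in 27 of them the probe means lay on both sides of 0. The widest gap was in Cyp2c66, from 0.80 ± 0.68 (SD, n = 20) at the first probe printed to -0.10 ± 0.34 at the second. Its level is therefore that of a 6-probe mean, not of an evenly raised gene. Over all 83 genes the median of the gene means was -0.018, against -0.095 over all autosomal gene names; 40 members had a mean above 0 and 43 below. The SD over tumours had a median of 0.230 among the members with at least 2 probes and 0.177 among all such genes.

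The Cyp2c, Cyp3a and chromosome 7 clusters stood above their surroundings in nearly every tumour, whereas the Cyp4f cluster stood below 0 in all 20 while its neighbourhood was lower still. Each cluster's level in a tumour is the mean centred log2 ratio of its probes, and its surroundings are the probes within 1 Mb on both sides. No test was made of these levels. They include what the arrays share, which removing the common profile takes out by construction. With it removed, Cyp2c averaged 0.017, Cyp3a 0.019, the chromosome 7 cluster -0.010 and Cyp4f -0.0047. With another background correction (normexp) Cyp2c averaged 0.0030.

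**Figure D1:**
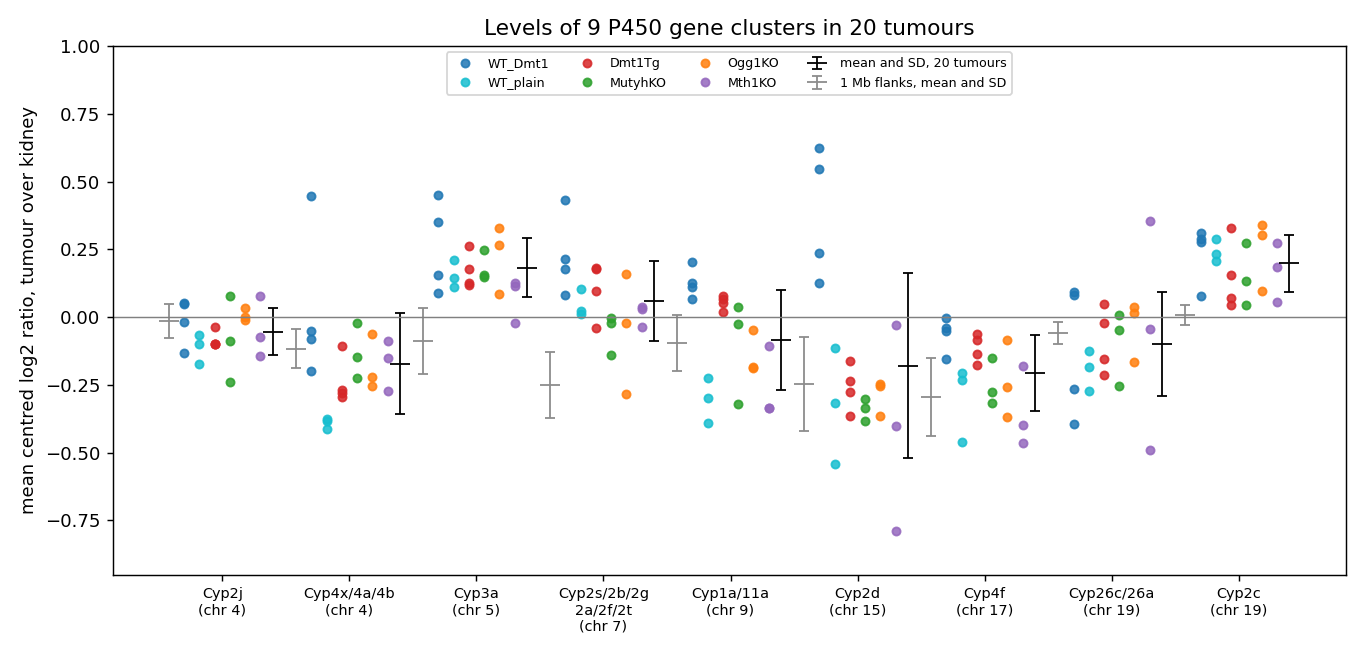
Mean centred log2 ratio (tumour over kidney) of the probes of each of the 9 P450 clusters; each point is a tumour, coloured by set, with the mean and SD over the 20 tumours in black and the mean and SD of the 1 Mb flanks in grey. All 20 tumours lie above 0 at Cyp2c and below 0 at Cyp4f, and 19 lie above 0 at Cyp3a.

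The Cyp2c cluster (chr19:39090495-40254025) encodes liver and kidney enzymes that oxidise drugs and arachidonic acid. Its 12 genes and 43 probes averaged 0.20 ± 0.11 (SD, n = 20), with the lowest value of 0.04 in MutyhKO 2, a median of 0.22 and the highest value of 0.34 in Ogg1KO 1. All 20 tumours were above 0, and the flanks averaged 0.008. The cluster was above its flanks in 19 of 20 tumours, by 0.19 ± 0.11. Probes inside the same stretch that belong to no P450 gene averaged 0.13, so the raised level was not limited to the named genes. By set, the means were 0.24 in WT_Dmt1, 0.24 in WT_plain, 0.15 in Dmt1Tg, 0.15 in MutyhKO, 0.25 in Ogg1KO and 0.17 in Mth1KO, and the sets overlapped.

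Within Cyp2c, 11 genes had a mean above 0. Among those with at least 2 probes the highest was Cyp2c65, at 0.37 ± 0.25 with a range from -0.16 to 0.88, and the lowest was Cyp2c54, at 0.06 ± 0.13 with a range from -0.23 to 0.25. Cyp2c29, a main mouse Cyp2c drug-oxidising enzyme of the liver, had 5 probes and a mean of 0.20 ± 0.13, from -0.003 to 0.53. The exception below 0 was Cyp2c50, read by 1 probe, whose values ran from -1.24 to 1.04.

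A called segment covered Cyp2c genes in 3 tumours. Segments are stretches of at least 5 probes with one fitted level, called by that level, gained at or above 0.2 and lost at or below -0.2; the means given are plain means over the segment's probes. In Dmt1Tg 1 the gain ran over chr19:38806420-40308381 (1.50 Mb, 108 probes, mean 0.29, SE 0.03) and took in all 12 genes. In Mth1KO 1 it ran over chr19:39136738-40313991 (1.18 Mb, 71 probes, mean 0.29, SE 0.04) and took in 11. In Ogg1KO 1 it was shorter and higher, over chr19:39157455-39631982 (0.475 Mb, 39 probes, mean 0.50, SE 0.06), and took in 6, from Cyp2c65 to Cyp2c39. The gain in Ogg1KO 1 began and ended within the probes of these end genes, and so held all probes of Cyp2c66, Cyp2c53-ps, Cyp2c29 and Cyp2c38 and a part of those of Cyp2c65 and Cyp2c39. All 3 gains share that stretch.

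The Cyp3a cluster (chr5:146113740-146923536) holds the genes of a subfamily central to drug oxidation. Its 6 genes and 15 probes averaged 0.18 ± 0.11, with the lowest value of -0.02 in Mth1KO 3, a median of 0.15 and the highest of 0.45 in WT_Dmt1 2. The flanks averaged -0.09, and the cluster was above them in 20 of 20 tumours, by 0.27 ± 0.11. Probes of no P450 gene inside the stretch averaged 0.11. Cyp3a16 was highest, at 0.41 ± 0.34 with a range from -0.35 to 0.98, and Cyp3a25 lowest among genes with at least 2 probes, at 0.03 ± 0.36. Cyp3a11, a major liver enzyme of the subfamily, had 1 probe and a mean of -0.01 ± 0.26. One tumour, WT_Dmt1 2, had a called gain here, which ended with the cluster's last probe (chr5:140305545-146923536, 6.62 Mb, 532 probes, mean 0.33, SE 0.02).

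On chromosome 7, 11 genes of the Cyp2s, Cyp2b, Cyp2g, Cyp2a, Cyp2f and Cyp2t subfamilies lie together (chr7:26591218-27941845), with 21 probes. They averaged 0.06 ± 0.15, with the lowest value of -0.28 in Ogg1KO 3, a median of 0.03 and the highest of 0.43 in WT_Dmt1 1. The flanks were at -0.25, and the cluster was above them in 19 of 20 tumours, by 0.31 ± 0.14. Probes of no P450 gene inside the stretch averaged 0.13, above the P450 probes, so the excess over the flanks was not limited to the named genes. The low values lay at the Cyp2f2 and Cyp2t4 end. Cyp2s1, at the other end, averaged -0.03 ± 0.46, from -0.84 to 0.90. Cyp2b23 was highest among genes with at least 2 probes, at 0.35 ± 0.26. Cyp2f2, which activates naphthalene in the lung, was lowest at -0.37 ± 0.24 and below 0 in all 20 tumours. The 1 probe of Cyp2t4, the last gene of the cluster, was also below 0 in all 20, at -0.57 ± 0.24.

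Called losses covered genes at both ends. Cyp2t4 was in a called loss in 15 tumours, Cyp2f2 in 10 and Cyp2s1, the first gene, in 9, while Cyp2b23 was in a called loss in none and in a gain in 3. In Ogg1KO 1 a gain over chr7:26639253-27918625 (1.28 Mb, 79 probes, mean 0.23, SE 0.05, fitted level 0.202, at the threshold) lay between losses with means of -0.55 and -0.64. Mth1KO 2 had a gain over chr7:26675946-27852388 (1.18 Mb, 72 probes, mean 0.27, SE 0.06, fitted level 0.230) between losses with means of -0.61 and -0.47. In Ogg1KO 2 a gain of 0.517 Mb (41 probes, mean 0.32, SE 0.06) covered Cyp2b23 alone. The other 10 genes of the cluster lay there in called losses with means of -0.22 and -0.26. Cyp2b10, a target of the drug-sensing receptor Nr1i3, stayed near 0, at -0.02 ± 0.10 over 3 probes, with 2 tumours called lost and 2 gained.

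The Cyp4f cluster (chr17:32597021-33102020) encodes hydroxylases of leukotrienes and long fatty acids. Its 8 genes and 19 probes averaged -0.21 ± 0.14, with the lowest value of -0.47 in Mth1KO 2, a median of -0.18 and the highest of -0.002 in WT_Dmt1 1. All 20 tumours were below 0. The flanks were lower, at -0.29, and the cluster was above them in 19 tumours, by 0.09 ± 0.08. Probes of no P450 gene inside the stretch averaged -0.07. Cyp4f40 was highest at 0.12 ± 0.11. The pseudogene Cyp4f41-ps was lowest at -0.71 ± 0.27, from -1.18 to -0.21, and both its probes printed above were low, at -0.58 ± 0.29 and -0.83 ± 0.35. Cyp4f14, a leukotriene hydroxylase, averaged -0.32 ± 0.18 and was also below 0 in all 20. The whole cluster lay in a called loss in MutyhKO 2, MutyhKO 3, Ogg1KO 3, Mth1KO 2 and Mth1KO 3, in segments of 2.31 to 10.1 Mb, and a part of it in Ogg1KO 2.

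The Cyp2d cluster (chr15:82201885-82624690) had 5 genes with 1 probe each, and varied most between tumours. Its mean was -0.18 ± 0.34, with the lowest value of -0.79 in Mth1KO 3, a median of -0.27 and the highest of 0.62 in WT_Dmt1 1, the noisiest array. The flanks averaged -0.25. All 4 WT_Dmt1 tumours were above 0, from 0.13 to 0.62, and all 16 others below. The probe of Cyp2d26 had the widest range, from -2.19 to 1.78 over the 18 tumours in which it was measured (SD 0.98). A called loss covered Cyp2d10, Cyp2d11, Cyp2d22 and Cyp2d34 in 11 tumours, in segments of 1.13 to 13.2 Mb: all of WT_plain, MutyhKO and Ogg1KO, and Mth1KO 2 and 3. In WT_Dmt1 2 they lay in a gain of 45.8 Mb (chr15:57293827-103075884, 3395 probes, mean 0.29, SE 0.01), so this gain was not specific to the cluster.

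Chromosome 4 carries a pair of clusters. The Cyp2j cluster (chr4:95714384-96326428), whose enzymes make epoxides of arachidonic acid, had 7 genes and 27 probes and averaged -0.05 ± 0.09, with the lowest value of -0.24 in MutyhKO 2, a median of -0.07 and the highest of 0.08 in MutyhKO 1. The flanks averaged -0.015, and the cluster was above them in 8 of 20 tumours. Probes of no P450 gene inside the stretch averaged 0.12. WT_plain 2 alone had a called loss here, over Cyp2j13, Cyp2j12 and Cyp2j11 (chr4:94074789-96060290, 1.99 Mb, 151 probes, mean -0.32, SE 0.03). The cluster's genes were far apart in level, with an SD over gene means of 0.240. The SD over tumours of 0.087 is that of the mean of all 27 probes, so the SDs are not like measures. Cyp2j8 was above 0 in all 20 tumours (0.17 ± 0.07 over 6 probes, 0.04 to 0.26). Cyp2j13 was below 0 in all 20 (-0.52 ± 0.24 over 3 probes, -1.11 to -0.16), and its value of -1.11 in WT_plain 1 was the one value beyond 1 in size among members with at least 3 probes. Cyp2j5, a kidney enzyme, averaged -0.11 ± 0.18.

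The second cluster of chromosome 4 (chr4:114790408-115309372) holds Cyp4x1, the Cyp4a genes and Cyp4b1, 9 genes with 14 probes. It averaged -0.17 ± 0.19, with the lowest value of -0.41 in WT_plain 3, a median of -0.21 and the highest of 0.45 in WT_Dmt1 1; the other 19 tumours were below 0. The flanks averaged -0.12. Cyp4b1, a lung and kidney fatty acid hydroxylase, was lowest at -0.42 ± 0.28, and Cyp4x1 highest among genes with at least 2 probes at -0.03 ± 0.16. Cyp4a10 and Cyp4a14, hydroxylases induced through the receptor Ppara, averaged -0.07 ± 0.53 and -0.35 ± 0.29. The cluster lay in called losses in WT_plain 2, WT_plain 3, MutyhKO 2 and Mth1KO 2, of 2.39 to 12.9 Mb.

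The clusters left were small. Cyp1a2, Cyp1a1 and Cyp11a1 (chr9:57526672-57871976, 5 probes) averaged -0.09 ± 0.18, with the lowest value of -0.39 in WT_plain 2, a median of -0.04 and the highest of 0.20 in WT_Dmt1 3. Cyp1a1 and Cyp1a2, induced through the receptor Ahr by aromatic pollutants, lay in called losses in Dmt1Tg 3, WT_plain 2, WT_plain 3, Mth1KO 2 and Mth1KO 3, of 0.929 to 1.44 Mb. Cyp26c1 and Cyp26a1, which break down retinoic acid (chr19:37762927-37774407, 2 probes), averaged -0.10 ± 0.19, and WT_plain 2 alone had a called loss there.

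**Figure D2:**
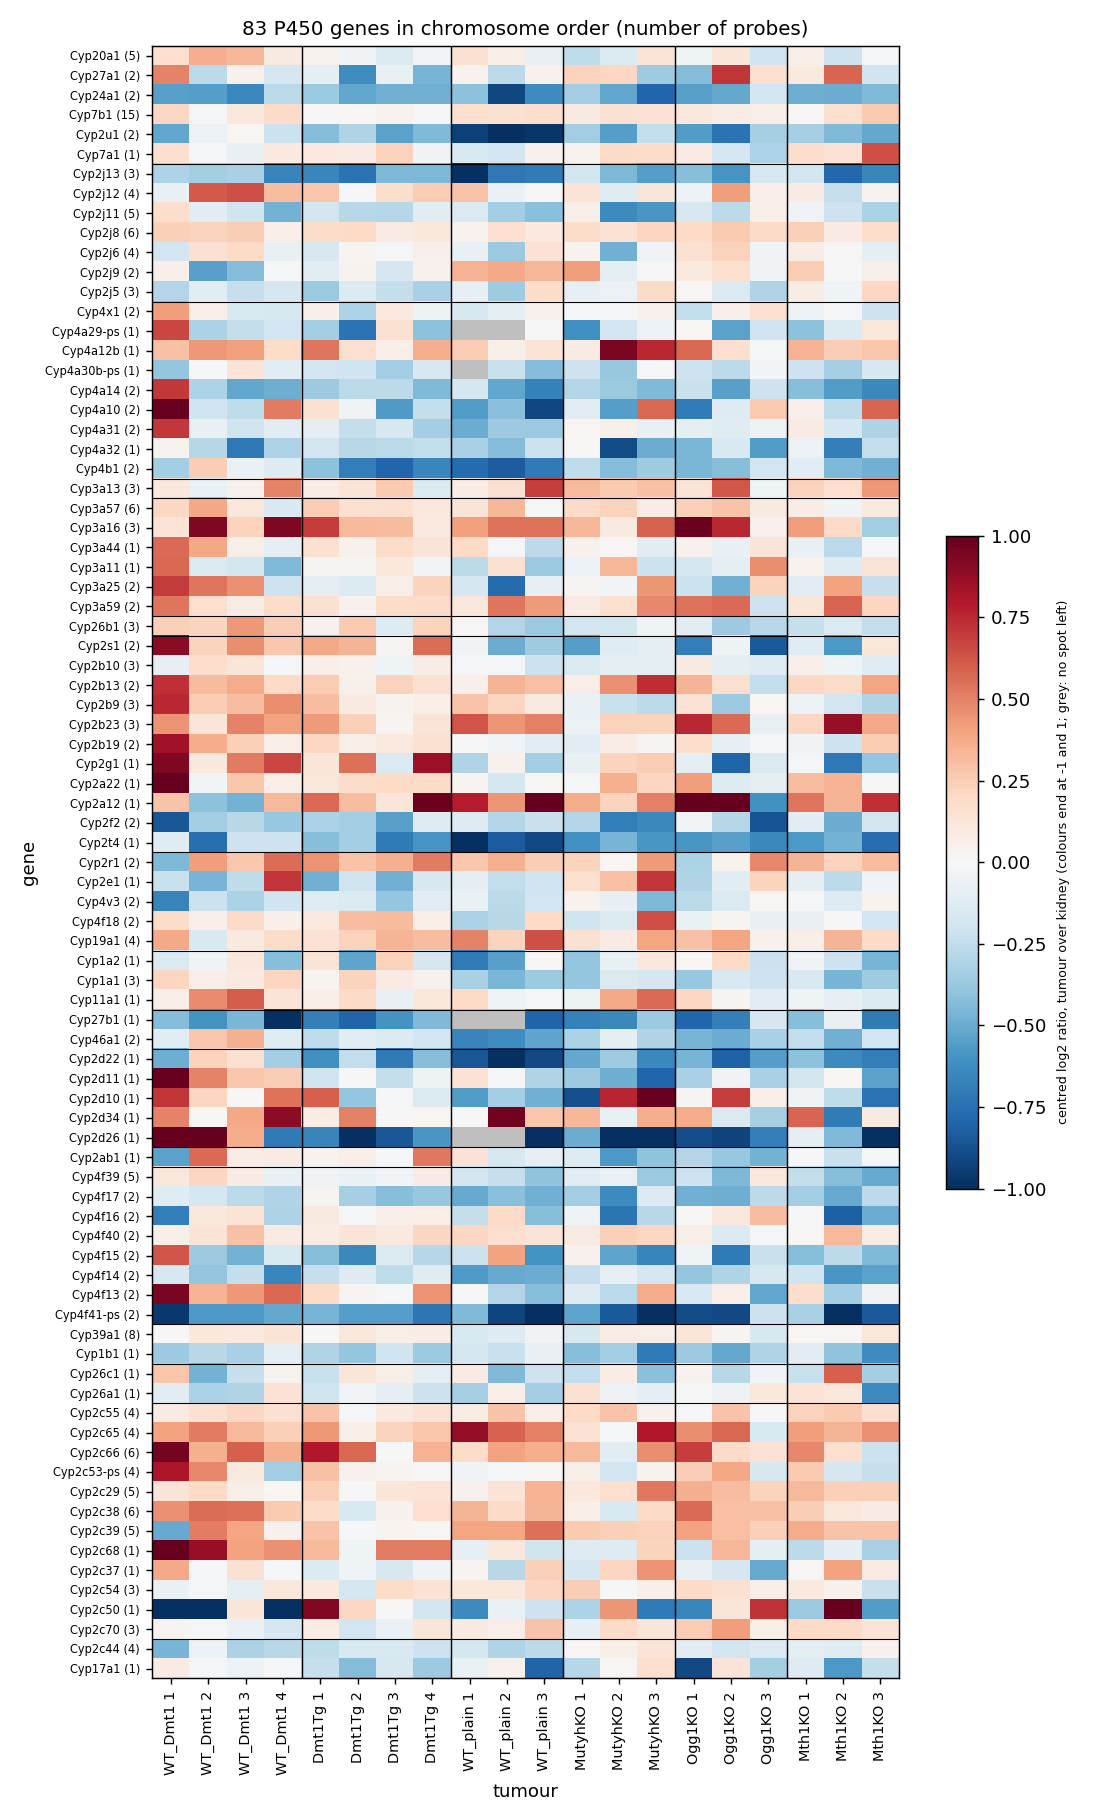
Centred log2 ratio (tumour over kidney) of the 83 P450 genes, in chromosome order with their number of probes, in the 20 tumours; red is above 0, blue below, grey not measured, and horizontal lines part the clusters and single genes. Cyp24a1, Cyp2j13, Cyp2f2, Cyp4f14 and Cyp4f41-ps are blue in all 20 tumours and Cyp2j8 is red in all 20.

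Among the 55 genes with at least 2 probes, 1 was above 0 in all 20 tumours (Cyp2j8), where 3.42% of all such autosomal genes were. Below 0 in all 20 were 5 (Cyp24a1, Cyp2j13, Cyp2f2, Cyp4f14 and Cyp4f41-ps), where 12.1% of all such genes were, so the share of P450 genes was near that of the array as a whole.

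By role, the 28 listed genes with probes fell unevenly around 0. The vitamin D genes were the furthest apart. Cyp24a1, which starts the breakdown of active vitamin D, had its lowest value of -0.91 in WT_plain 2, a median of -0.50 and its highest of -0.20 in Ogg1KO 3 (mean -0.51 ± 0.16), and its probes printed above averaged -0.48 ± 0.25 and -0.53 ± 0.21. WT_plain 2 alone had a called loss over it. Cyp27b1, which makes active vitamin D in the kidney, had 1 probe at -0.58 ± 0.24 (n = 18) and was called lost in 14 tumours. Cyp2r1, the liver enzyme of the preceding step, averaged 0.25 ± 0.26 and was called lost in none.

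All 5 fatty acid genes (Cyp4a10, Cyp4a14, Cyp4b1, Cyp4f14 and Cyp2j5) had means below 0, with a median of -0.32. Other genes of their clusters had means above 0: 3 of 7 in Cyp2j, 2 of 8 in Cyp4f and 1 of 9 in the cluster of Cyp4x1, Cyp4a and Cyp4b1. All 3 retinoic acid genes had means below 0, from -0.10 to -0.04, near the median of -0.095 over all autosomal gene names. Of the 9 genes for foreign compounds 7 were below 0, with a median of -0.08. The highest was Cyp3a13, a Cyp3a gene outside the cluster, at 0.21 ± 0.22 over 3 probes, though it was called lost in 8 tumours. Cyp1b1, an Ahr target, had 1 probe at -0.33 ± 0.16 and was below 0 in all 20 tumours. Cyp2e1, which oxidises ethanol, averaged -0.08 ± 0.34 over 1 probe and was called lost in all 4 Dmt1Tg tumours and in no other. These calls rest on segment levels from -0.42 to -0.35, which include neighbouring probes. All 4 Dmt1Tg arrays lay on slide 2 alone, so genotype and slide cannot be told apart. With genes of 1 probe included, limma called 0 of 83 members for Dmt1Tg, and 0 of all 20368 genes.

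The steroid hormone genes with probes had a median of 0.12 and the bile acid and cholesterol genes one of 0.018. Cyp19a1, the aromatase that makes oestrogens, averaged 0.24 ± 0.18 over 4 probes and was never called. Cyp17a1, needed for androgens, had 1 probe at -0.21 ± 0.29 and was called lost in 15 tumours. Cyp7a1, the rate-limiting enzyme of bile acid synthesis, averaged 0.06 ± 0.20, and Cyp7b1 0.11 ± 0.08 over its 15 probes. Cyp39a1 averaged 0.02 ± 0.10 over 8 probes, and none of these 3 was ever called. Cyp46a1, the brain cholesterol hydroxylase, averaged -0.25 ± 0.26 and was called lost in 5 tumours.

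Over all 83 genes and 20 tumours, 281 of 1653 measured pairs of gene and tumour were called lost, 17.0%, against 20.7% over all autosomal genes. Gains made up 60 pairs, 3.63%, against 2.07%. Of these gained pairs 58 lay in the clusters Cyp2c, Cyp3a, Cyp2d and that of chromosome 7, as several neighbours in one segment except for Cyp2b23 in Ogg1KO 2, and the other 2 were Cyp20a1 and Cyp2e1 in WT_plain 2. With the common profile removed 6 pairs were lost (0.363% against 0.395% of all genes' pairs) and 12 gained (0.726% against 0.665%), so little was left of either contrast with all genes. With normexp 109 were lost (6.59% against 9.33%) and 11 gained (0.665% against 0.357%). With dim spots left out gains were at 1.40% of member pairs, below the 1.64% of all genes. Neighbours in a segment share 1 call, so these pairs are not independent.

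At least 3 tumours were called lost for 36 of the 83 genes (38.9% of all autosomal genes) and at least 10 for 11 (21.4%). At least 3 tumours were called gained for 7 (6.11%), which were Cyp2b23 and the 6 Cyp2c genes from Cyp2c65 to Cyp2c39. No tumour was called for 13 genes, but the share over all autosomal genes was not counted, so this number has nothing to be set against. The most often lost gene was Cyp27a1, a mitochondrial enzyme of bile acid synthesis, in 17 tumours, but its own 2 probes averaged -0.02 ± 0.35. A call is read from the segment, which includes neighbouring probes, and likewise Cyp4f18 was called lost in 14 tumours with an own mean of 0.04 ± 0.23. Cyp17a1 and Cyp2t4 followed with 15 each, Cyp27b1 with 14 and Cyp2c44, an epoxygenase gene outside the Cyp2c cluster, with 11.

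**Figure D3:**
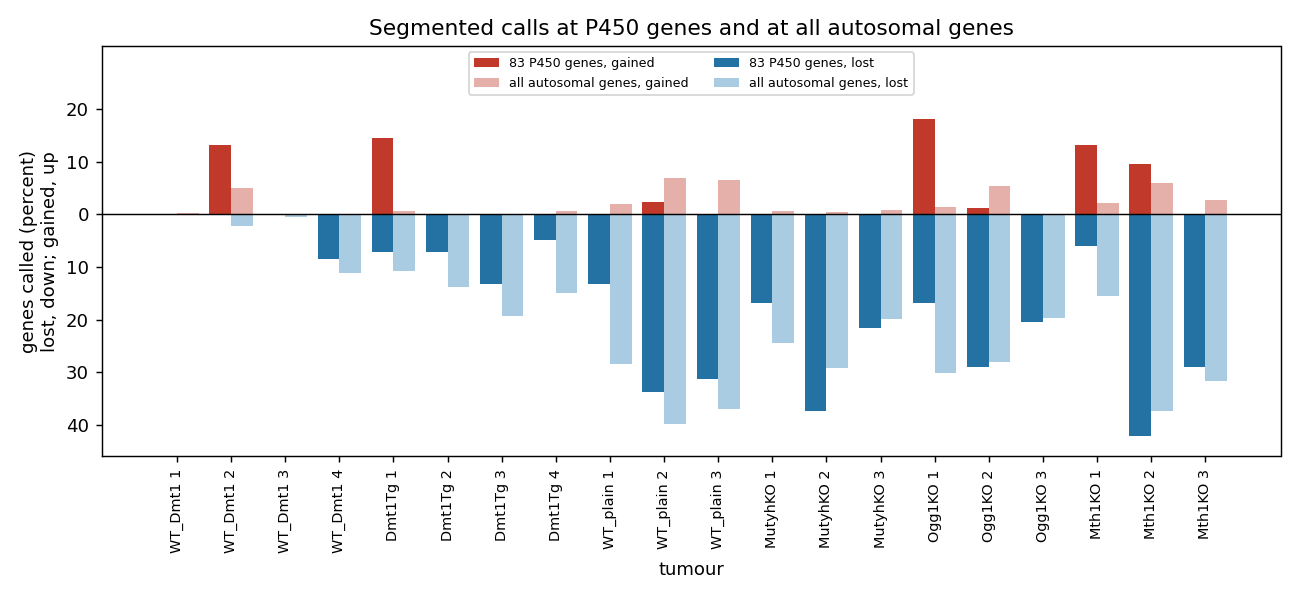
Percent of the 83 P450 genes called gained (upward) and lost (downward) in each of the 20 tumours, with the same percent over all autosomal genes as paler bars. Gains of P450 genes are highest in Ogg1KO 1 (18.1%) and losses in Mth1KO 2 (42.2%).

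Tumours differed in the number of P450 genes called. Each array's segmentation penalty was 40 times its own noise variance, so a noisier array needed a larger or longer step for a new segment. Probe noise was 0.535 in WT_Dmt1 1 and 0.384 in WT_Dmt1 3, and its effect on these counts was not tested. WT_Dmt1 1 and WT_Dmt1 3 had none, and few of all autosomal genes were called there. In WT_Dmt1 1, 0% of all genes were lost and 0.334% gained, and in WT_Dmt1 3, 0.589% and 0.108%. WT_Dmt1 2 had gains alone, where 2.22% of all genes were lost. Losses were most frequent in Mth1KO 2, at 42.2% of members against 37.4% of all autosomal genes, and in MutyhKO 2, at 37.3% against 29.1%. Gains were most frequent in Ogg1KO 1, at 18.1% against 1.43%, followed by Dmt1Tg 1, at 14.5% against 0.619%, and Mth1KO 1, at 13.3% against 2.15%. In these 3 tumours the gained P450 genes were the neighbours in the Cyp2c segment and, in Ogg1KO 1, the chromosome 7 segment. In WT_Dmt1 2, 13.3% of members and 5.03% of all genes were gained.

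The genotype comparisons asked whether the DNA content of any P450 gene differed between the tumours of a genotype and the 7 wild-type tumours. No P450 gene passed in any of them. With limma over 12573 genes, 0 of 55 members had an adjusted p under 0.05 for Dmt1Tg, MutyhKO, Ogg1KO or Mth1KO, and neither had any other gene (0% of all genes in each). At an unadjusted p under 0.05 there were 4 members for Dmt1Tg (3.92% of all genes), 5 for MutyhKO (8.28%), 5 for Ogg1KO (8.17%) and 5 for Mth1KO (9.14%). The median member difference was -0.02, -0.02, -0.01 and -0.03 in that order. The 4 comparisons share the wild-type tumours and are not independent of each other.

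Cyp2b9, a Cyp2b gene of the chromosome 7 cluster, was among the 2 members with the lowest p in each knockout. In WT_Dmt1 its values were 0.76, 0.26, 0.31 and 0.47, and in WT_plain 0.28, 0.21 and 0.09. MutyhKO tumours had -0.07, -0.22 and -0.27, Mth1KO tumours -0.05, -0.19 and -0.30, and Ogg1KO tumours 0.14, -0.36 and 0.02. All MutyhKO and all Mth1KO tumours were below every wild-type tumour, while Ogg1KO 1 lay among them. The difference from wild type was -0.53 (SE 0.12, limma adjusted p = 0.225) for MutyhKO, -0.52 (SE 0.12, limma adjusted p = 0.320) for Mth1KO and -0.41 (SE 0.12, limma adjusted p = 0.536) for Ogg1KO. Dmt1Tg tumours had 0.30, 0.09, 0.04 and 0.07 and a difference of -0.21 (SE 0.11). The probe at chr7:26970872 had the widest spread of the gene's 3 probes, with an SD of 0.57 over tumours.

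Cyp2c44 went the other way. Its values were -0.46, -0.06, -0.31 and -0.28 in WT_Dmt1 and -0.18, -0.30 and -0.26 in WT_plain. MutyhKO tumours had 0.01, 0.06 and 0.13, all above every wild-type tumour, and differed by 0.33 (SE 0.07, limma adjusted p = 0.202). The segments over the gene went otherwise: every MutyhKO tumour was called lost, at -0.22, -0.26 and -0.29. So were every WT_plain tumour and WT_Dmt1 4, while WT_Dmt1 1, WT_Dmt1 2 and WT_Dmt1 3 were at 0.006, -0.03 and -0.03. Mth1KO tumours had -0.09, -0.12 and 0.05, which overlap with WT_Dmt1 2, and differed by 0.21 (SE 0.07, limma adjusted p = 0.489).

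Cyp2c38 had the lowest p for Dmt1Tg. Its values there were 0.18, -0.16, 0.04 and 0.17, each below every wild-type value, which ran from 0.19 to 0.56. The difference was -0.33 (SE 0.09, limma adjusted p = 0.9995). Cyp4f14 was next for Dmt1Tg, at 0.25 above wild type (SE 0.09, with the same limma adjusted p), and the groups overlapped. For Ogg1KO the second was Cyp2s1, an enzyme of epithelia, with -0.69, -0.05 and -0.84 against a wild-type range from -0.50 to 0.90. It differed by -0.66 (SE 0.25, limma adjusted p = 0.540).

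**Figure D4:**
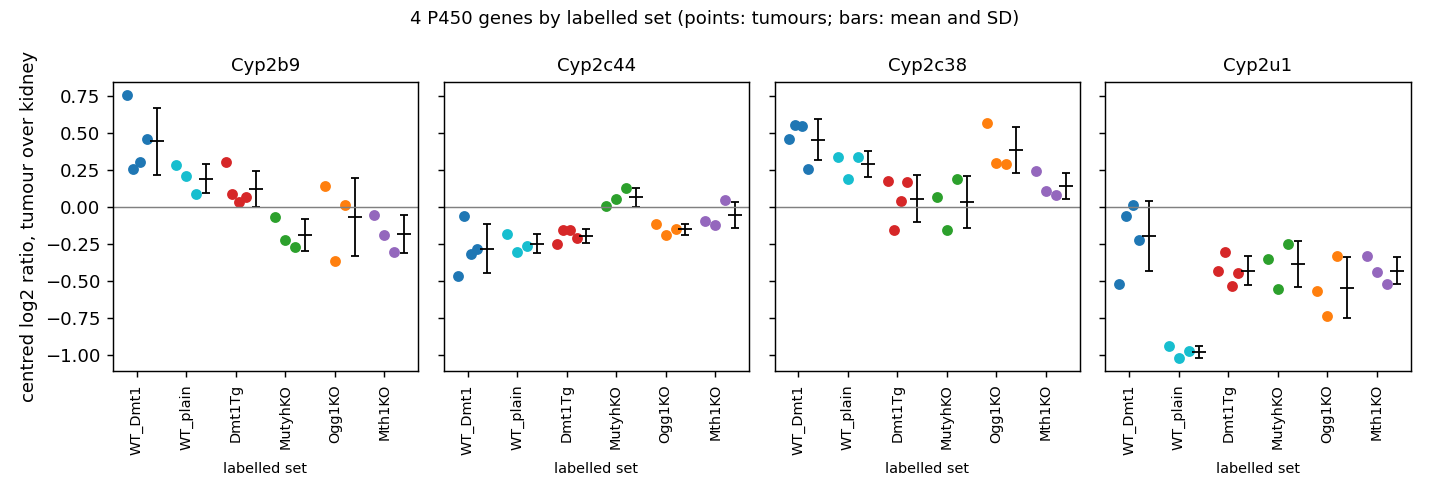
Centred log2 ratio (tumour over kidney) of Cyp2b9, Cyp2c44, Cyp2c38 and Cyp2u1 by set; points are tumours and bars are the mean and SD of the set. MutyhKO and Mth1KO tumours lie below all wild-type tumours at Cyp2b9, MutyhKO tumours above them at Cyp2c44 and Dmt1Tg tumours below them at Cyp2c38; the WT_plain tumours lie apart from all others at Cyp2u1.

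Few members were fully apart from wild type. This held for 1 of 55 in Dmt1Tg (Cyp2c38, 0.773% of all genes), 2 in MutyhKO (Cyp2c44 and Cyp2b9, 1.65%), 1 in Ogg1KO (Cyp4f40, below, 1.35%) and 1 in Mth1KO (Cyp2b9, 1.94%). As a cluster, the chromosome 7 genes were below 0 in all 3 MutyhKO tumours (-0.14, -0.02 and -0.002) and above 0 in all 7 wild-type tumours (0.01 to 0.43), with values near 0 on both sides. This difference was not tested. With the common profile removed the WT_plain tumours were below 0 too, at -0.015, -0.027 and -0.070, while WT_Dmt1 tumours stayed above 0. MutyhKO tumours were then at -0.163, -0.076 and -0.083. That removal brings levels near 0 by construction, so a split by sign cannot be judged after it.

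The genotype counts changed with the control set for MutyhKO alone. Against the 3 WT_plain tumours, which were scanned on the same day, or with scan day as a block, 1 of 55 members passed, where 0.748% of all genes did (94 of 12573). It was Cyp2u1, a fatty acid hydroxylase, with a difference of 0.59 (SE 0.13, limma adjusted p = 0.036) against 0.15 (SE 0.20, limma adjusted p = 0.856) with all 7 wild-type tumours. With slide as a random block the difference was 0.37 (limma adjusted p = 0.631), and with slide as a fixed block 0.63 (limma adjusted p = 0.150). For Dmt1Tg, Ogg1KO and Mth1KO 0 members passed by limma with these settings. Against the wild-type set of the same day, 0% of all genes passed for Dmt1Tg, 0.00795% for Ogg1KO (1 gene) and 0.199% for Mth1KO (25 genes).

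More P450 genes passed between the wild-type sets than in any genotype comparison. The comparison bears on whether they can stand as 1 control. With limma 14 of 55 P450 genes had an adjusted p under 0.05, 13 of them higher in WT_Dmt1 and 1 lower. The share is not above that of the array: 27.5% of all 12573 genes passed, 21.9% higher and 5.68% lower. At an unadjusted p under 0.05 there were 17 members (39.8% of all genes). The median difference, WT_Dmt1 minus WT_plain, was 0.15 for the members and 0.10 for all genes. The values of the sets did not overlap for 16 of the 55 members (32.7% of all genes). The sets differed in slide and scan day (slide 1 and day 1 for WT_Dmt1, slide 3 and day 2 for WT_plain). Set, slide and day therefore cannot be told apart between them. Slide 3 also held MutyhKO 1, and both days held arrays of other sets.

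Cyp2u1 had the lowest p. It was at -0.52, -0.06, 0.02 and -0.22 in WT_Dmt1 and at -0.94, -1.02 and -0.97 in WT_plain. The WT_plain values were below those of all 17 other tumours, which ran down to -0.74 in Ogg1KO 2. The difference was 0.78 (SE 0.12, limma adjusted p = 0.0003), and both probes printed above were low on average, at -0.62 ± 0.23 and -0.32 ± 0.37 over 20 tumours.

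Cyp46a1 was at -0.11, 0.28, 0.36 and -0.12 in WT_Dmt1 and at -0.66, -0.62 and -0.52 in WT_plain, a difference of 0.70 (SE 0.11, limma adjusted p = 0.0004). Cyp1a1 was at 0.21, 0.06, 0.10 and 0.21 against -0.33, -0.45 and -0.37, a difference of 0.53 (SE 0.09, limma adjusted p = 0.0005). In both genes every WT_Dmt1 value was above every WT_plain value. Cyp4b1 had -0.34, 0.25, -0.07 and -0.13 against -0.77, -0.83 and -0.71 and differed by 0.70 (SE 0.12, limma adjusted p = 0.0009). Cyp26b1 had 0.24, 0.22, 0.44 and 0.25 against 0.01, -0.30 and -0.37 and differed by 0.50 (SE 0.11, limma adjusted p = 0.0025).

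**Figure D5:**
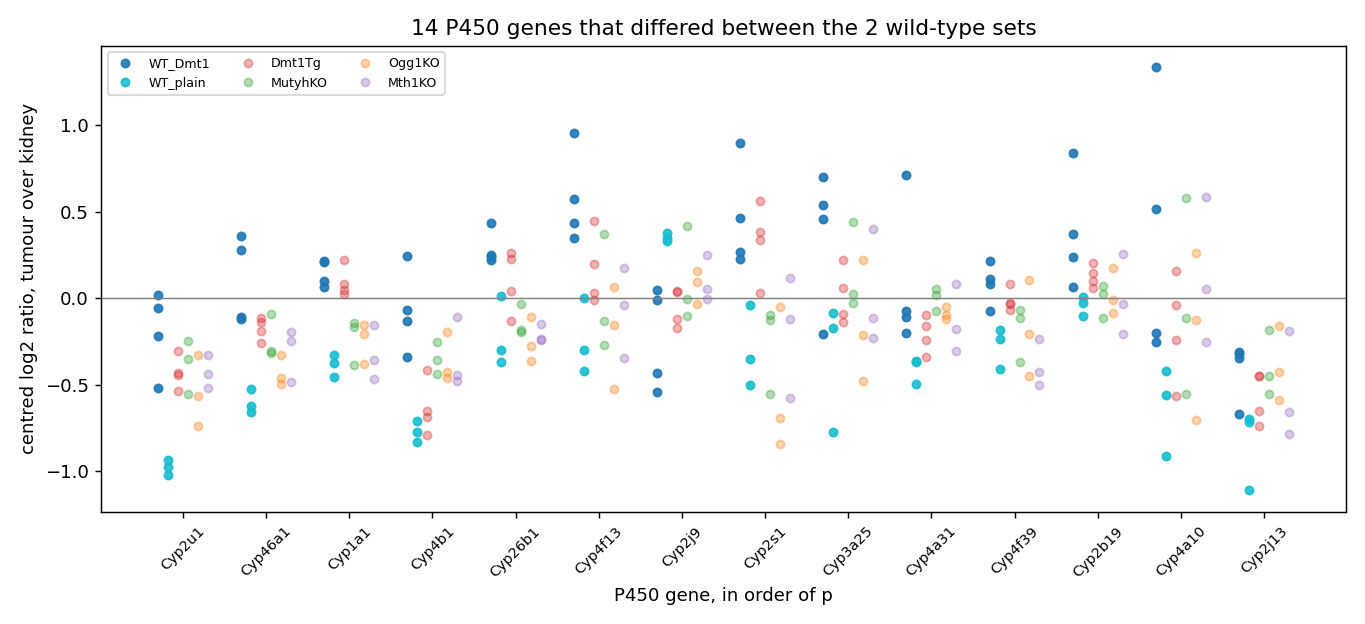
Centred log2 ratio (tumour over kidney) of the 14 P450 genes past the limma adjusted p of 0.05 between the wild-type sets, in order of p; each point is a tumour, with the wild-type sets in full colour and the other 4 sets paler. WT_Dmt1 averages below WT_plain at Cyp2j9 and above it at the other 13.

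Cyp2j9 was the one member lower in WT_Dmt1, at 0.05, -0.54, -0.43 and -0.01 against 0.35, 0.38 and 0.33, a difference of -0.58 (SE 0.14, limma adjusted p = 0.0051). The other 8 called genes were higher in WT_Dmt1, by 0.36 (Cyp4f39) to 0.98 (Cyp4a10, SE 0.35, limma adjusted p = 0.043). They were Cyp4f13, Cyp2s1, Cyp3a25, Cyp4a31, Cyp4f39, Cyp2b19, Cyp4a10 and Cyp2j13, and so came from the clusters of chromosomes 4, 5, 7 and 17 and none from Cyp2c. The count of 14 fell to 8 without WT_plain 2, to 9 without WT_plain 3 and to 8 with slide as a random block. Cyp2u1, Cyp46a1, Cyp1a1 and Cyp4b1 passed in every setting in which they were tested.

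The genes listed for comparison were mainly those of proteins that supply P450 enzymes with electrons or regulate their genes. The list also held Hmox1, which had no probe, and Cyp51. Cyp51 is itself a P450, but its name has no letter after the number, so it was not among the members. It was among the genes tested, at -0.45 ± 0.37 (SD, n = 18). Of 24 listed genes 21 had probes and 17 could be tested. With limma 0 of 17 passed in each genotype comparison, with 0, 1, 1 and 0 at an unadjusted p under 0.05 for Dmt1Tg, MutyhKO, Ogg1KO and Mth1KO. Between the wild-type sets 10 of 17 were higher in WT_Dmt1 and 0 lower, where 21.9% and 5.68% of all genes were. These genes were at a lower level than the P450 genes, with a median of -0.43 against -0.018, and 37.3% of their pairs with tumours were called lost against 17.0% of P450 pairs and 20.7% over all genes. Por, the reductase on which the P450 enzymes of the endoplasmic reticulum depend, was below 0 in all 20 tumours, with the lowest value of -1.09, a median of -0.70 and the highest of -0.37. It was called lost in 11.

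Genes of other drug-handling families, such as the Ugt, Sult, Gst and Aldh genes, lay between. Of 85 genes, 60 could be tested; with limma 0 passed in each genotype comparison, with 3, 8, 5 and 6 at an unadjusted p under 0.05 in the same order. Between the wild-type sets 12 of 60 were higher in WT_Dmt1 and 3 lower, near the 21.9% and 5.68% of all genes. Their median level was -0.09, with 17.1% of pairs called lost and 5.12% gained.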

How the data were processed

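Each of the 20 arrays carried 180880 spots, 174305 of them not controls. Per the file headers, the authors' scanner software (Agilent Feature Extraction 10.7.1.1; 10.7 per the submitters' processing notes) gave each spot a red and a green processed intensity, subtracted for background, spatially detrended and dye-normalised, and a log10 ratio of red over green. Per the labels, red is tumour DNA and green kidney DNA on every array. The deposited value table holds log2 ratios, uncentred, which matched the log10 ratios within 6.29e-07 after conversion. Probe positions are mm9 per the file headers.

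Here the log2 ratio of the processed intensities was taken, and outlier-flagged spots and spots in array patches (local median over 21 by 21 spots beyond 0.5 in size) were left out. The mean over spots gave 1 value per probe, and the median over autosomal probes was subtracted array by array. A gene is the mean of its probes. Chromosomes were segmented by penalised least squares (penalty 40 times the noise variance, at least 5 probes) and called at 0.2 and -0.2. Genes with at least 2 probes were compared with limma 3.58.1 (R 4.3.3, Benjamini-Hochberg, two-sided, threshold 0.05), in a fit of 5 genotypes or of 6 sets. The script was tested on simulated data. Other steps used Python 3.11.15, numpy 2.4.6 and pandas 2.3.3. The number of arrays limits the precision. Columns of other samples in the files numbered 0.

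Named genes are the highest and lowest of each cluster, those with the lowest p per comparison, those most often called, values of at least 1 in size over at least 3 probes, and the role lists. Members and lists were chosen with earlier results of these data known. Same-numbered samples of different groups are not said to be related, and their deviations correlated between -0.126 and 0.153, so numbers were not used as pairs. Alternatives covered patches, centring, background, dim spots, the value table, the common profile, probe summary and minimum, control set, scan day, slide, replicate number, call threshold, penalty and each tumour left out. The sequence of 1 probe is not reported here.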

Additional observations from a re-analysis of the deposited data

Results flagged for a closer look

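Extreme tumours were looked for with Dixon's criterion within WT_Dmt1, within Dmt1Tg and within all 7 wild-type tumours together. The sets of 3 tumours were not tested alone. This made 174 groups of values, which overlap because WT_Dmt1 is part of the wild-type group. The criterion marks about 5% of independent groups by chance, and 18 values were marked. WT_Dmt1 1, the array with the highest probe noise, was the extreme tumour in 7 of these. Its level was 0.45 at the cluster of Cyp4x1, Cyp4a and Cyp4b1 (nearest wild-type tumour -0.05), 0.42 at Cyp4x1 (nearest 0.07), -0.85 at Cyp2f2 (nearest -0.38) and -0.96 at Cyp4f41-ps (nearest -0.58). It was 0.50 at Cyp27a1 (nearest 0.04), 0.71 at Cyp4a14 (nearest -0.17) and -0.45 at Cyp2r1 (nearest 0.25). WT_Dmt1 4 was extreme at the Cyp2c cluster (0.076, nearest 0.28), Cyp2j8 (0.065, nearest 0.22), Cyp2j13 (-0.67, nearest -0.34) and Cyp2e1 (0.71, nearest -0.09). WT_Dmt1 3 was extreme at Cyp26b1 (0.44, nearest 0.25), and WT_Dmt1 2 at Cyp2t4 (-0.75, nearest -0.21) and Cyp7b1 (-0.018, nearest 0.11). WT_plain 3 was extreme at Cyp17a1 (-0.80, nearest -0.06). Among Dmt1Tg tumours, Dmt1Tg 4 was extreme at the Cyp2j cluster (-0.035, nearest -0.10), Dmt1Tg 1 at the cluster of Cyp4x1, Cyp4a and Cyp4b1 (-0.11, nearest -0.27) and Dmt1Tg 2 at Cyp2d34 (0.50, nearest 0.08).

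The sign differed between whole groups in 3 clusters, none of them tested. The chromosome 7 cluster was below 0 in all 3 MutyhKO tumours and above 0 in all 7 wild-type tumours, and the means differed by -0.20. With the common profile removed, WT_plain tumours were at -0.015, -0.027 and -0.070 and MutyhKO tumours at -0.163, -0.076 and -0.083. The removal brings levels near 0 by construction, so a split by sign cannot be judged after it. The cluster of Cyp1a1, Cyp1a2 and Cyp11a1 was above 0 in all 4 WT_Dmt1 and below 0 in all 3 WT_plain tumours, a difference of 0.43. The Cyp2d cluster was so too, with a difference of 0.71. By limma, 14 P450 genes differed between the wild-type sets, and slide and scan day cannot be told apart from the set.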

How the results depend on the processing

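Counts of P450 genes past the limma threshold were 0 in each genotype comparison and alternative, leave-one-out included (0 to 0), except 1 for MutyhKO against WT_plain alone, scanned on the same day, or with scan day as a block. Between the wild-type sets the 14 became 4 of 29 with at least 3 probes, 8 with slide as a random block, 8 to 14 with a tumour left out and 11 with normexp. With replicate number as a block 12 passed, and the genotype counts stayed at 0. Removing the common profile, which takes out what the arrays share by construction, brought the clusters to 0.015 (Cyp4x1, Cyp4a and Cyp4b1), -0.010 (chromosome 7), 0.028 (Cyp2d), 0.019 (Cyp3a), -0.0047 (Cyp4f) and 0.017 (Cyp2c), the first 3 with a changed sign. With normexp Cyp2c was at 0.0030, and the Cyp1a and Cyp26 clusters moved to 0.0065 and 0.0066, again a changed sign; the cause was not tested. With members under 2 Mb apart Cyp26a1 and Cyp26c1 joined Cyp2c, at 0.19. Leaving out a tumour changed no cluster's sign.

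Called losses, 281, became 109 with normexp, 6 without the common profile, 554 at a threshold of 0.1 and 168 at 0.3. Called gains, 60, became 11, 12, 185 and 12 in that order, 22 without dim spots and 92 at a penalty of 20. Against all genes the order turned for gains without dim spots (1.40% against 1.64%) and for losses at a threshold of 0.1 (33.5% against 31.5%) and a penalty of 80 (17.2% against 16.1%). With a tumour left out losses ran from 246 to 281 and gains from 45 to 60. Levels of single genes rest on 1 to 15 probes, and 28 members on 1.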
